A study of Mus musculus with 58 samples.

Results

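Liver RNA of male mice was followed over 5 levels of trichloroethylene (TCE), a chlorinated solvent, and the shape of each gene's dose response was described. The 15 liver libraries labelled TCE were used, of 58 libraries in the series, and all 15 were found. They comprise 3 libraries each at 0 (vehicle), 0.22, 0.67, 2 and 6 mmol/kg, the labels' approximations of 0, 24, 80, 240 and 800 mg/kg. Each mouse had 1 intragastric dose, given in the morning, and the vehicle, which all groups received, was 5% Alkamuls EL-620 in saline at 5 mL/kg. The protocols give adult B6C3F1/J males of 5 to 6 weeks, a first-generation hybrid strain, while the strain label reads C57BL/6. The labels used do not state when the livers were taken. The 14 liver libraries of tetrachloroethylene (PCE), with vehicle libraries of their own, served as a comparison. Levels are read counts scaled by normalized library size (CPM), which compare 1 gene between libraries and not genes with each other. Sums of cell type markers, also given in CPM, are scaled by library totals without that normalization. In whole tissue, fewer cells of a type and less RNA per cell cannot be told apart.

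As background, hepatocytes oxidize TCE, largely through the cytochrome P450 Cyp2e1, to chloral and trichloroacetate. Trichloroacetate and related acids activate PPARα, a nuclear receptor that senses fatty acids. With its partner RXR, PPARα binds paired half-sites in DNA and raises genes of peroxisomal and mitochondrial fatty acid oxidation, above all the Cyp4a fatty acid hydroxylases. Rodent liver responds strongly to such agents.

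The libraries differed in depth and in a slope on transcript length. Library totals were 89805766 to 118064716 counts at 0 and 6 mmol/kg and 30932385 to 65112568 at the doses between, a difference that the design text states as planned, so that depth and these dose groups cannot be told apart. The share of reads matching no gene was 18.35%, 14.29% and 21.15% in the libraries at 0.67 mmol/kg. Genes with a mean log2 CPM above 0 were used. For each library, the deviation of log2 CPM from the gene's mean over all liver libraries was regressed jointly on log2 transcript length and GC content. This length slope, in log2 units per doubling of length, was -0.18, 0.18 and 0.18 at 0 mmol/kg and 0.20, 0.09 and 0.02 at 0.22 mmol/kg. It was -0.11, 0.09 and -0.14 at 0.67 mmol/kg, -0.14, 0.03 and -0.12 at 2 mmol/kg, and 0.02, -0.02 and 0.00 at 6 mmol/kg. In 4 dose groups 1 library had the opposite sign to the other two: replicate 1 of the vehicle and replicate 2 of 0.67, 2 and 6 mmol/kg. The gap to the other two was largest for the vehicle library and next for that at 0.67 mmol/kg, so these were chosen, after the data were seen, as the libraries that stood apart and were left out singly and together. Every other library was left out singly. All 12 hepatocyte markers on the list used were detected, with a summed level of 136500 to 191500 CPM over the 15 libraries.

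**Figure D1:**
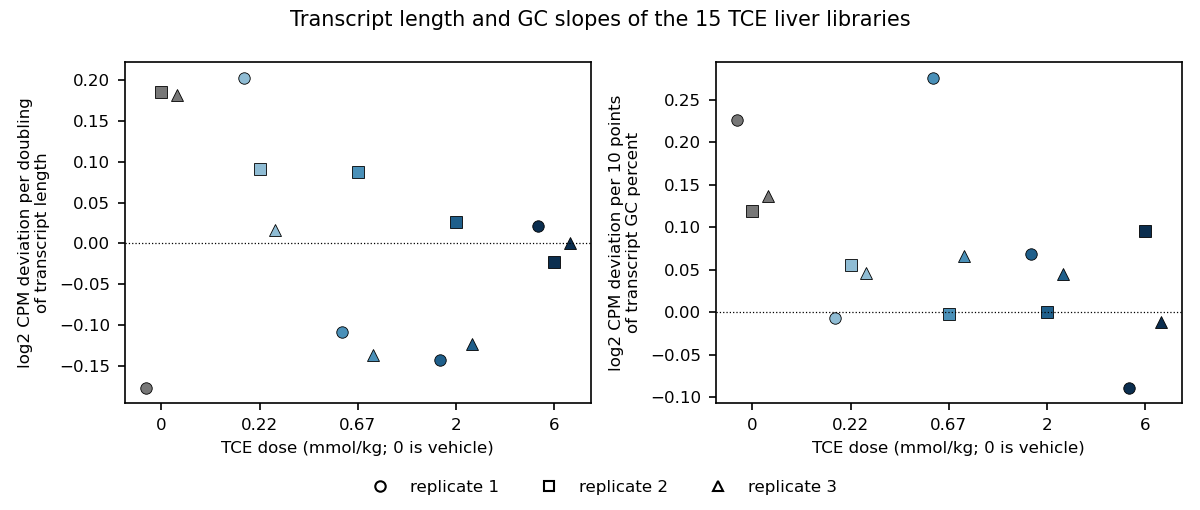
Slopes of log2 CPM deviation on transcript length (left) and GC content (right) for the 15 TCE liver libraries, by dose in mmol/kg, with 1 symbol per replicate. At 0.67 mmol/kg, replicate 2 lies at 0.09 on the left axis and replicates 1 and 3 lie at -0.11 and -0.14.

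The first question was which genes moved along the doses, tested as a slope of log2 level on dose rank (0 to 4) over all 15 libraries. Of 12437 genes tested, 106 passed an adjusted p under 0.05, or 0.852%. Of these, 59 were higher with dose (0.474%) and 47 lower (0.378%). The median slope of all genes tested was -0.01 per rank. With vehicle replicate 1 left out, 228 genes passed, 91 higher and 137 lower. Leaving out vehicle replicate 2 or 3 gave 50 or 22 genes, replicate 2 or 3 of 6 mmol/kg 34 or 23, replicate 2 or 3 of 0.22 mmol/kg 66 or 53, replicate 1 of 0.67 mmol/kg 170 and replicate 2 of 2 mmol/kg 65. Without 0.67 mmol/kg replicate 2, the other library that stood apart, 91 genes passed, 44 higher and 47 lower. When the slopes on length and GC were added as covariates, 2 genes passed and none was among the 106. Genes called lower had a median transcript length of 4793 bases and those called higher 2763 bases, against 3202 bases for all genes tested. The part of length and GC in the individual calls was not tested further.

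Targets of PPARα were among the genes that rose. Of 64 genes on a list of PPARα targets and fatty acid oxidation enzymes, 57 passed the count filter, 15 of these rose with dose and none fell, against 0.474% of all genes tested that rose. The median slope of the 57 genes was 0.15 log2 units per rank, and 54 slopes were positive, against 5801 of 12437 over all genes. The 6 mmol/kg group had the highest of the 5 means for 50 of the 57 genes, a position that 13.9% of all genes tested took. The 15 genes that rose had their highest mean at 6 mmol/kg, and 8 of them had 5 means in strict order. Between 7 and 20 members rose when any 1 library was left out, and 17 rose without vehicle replicate 1 and 0.67 mmol/kg replicate 2 together. None passed with the length and GC slopes as covariates, where the median slope of the list was 0.19.

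Cyp4a14, a fatty acid omega-hydroxylase (chromosome 4, 115486200 to 115496158, GRCm38), had the steepest slope of the named genes. It measured 1.52, 11.6 and 0.91 CPM in vehicle, 12.7, 12.8 and 3.19 at 0.22 mmol/kg and 8.46, 17.1 and 30.0 at 0.67 mmol/kg. At 2 mmol/kg its values were 4.69, 173 and 61.3 CPM, and at 6 mmol/kg 1482, 906 and 850 CPM. The libraries at 6 mmol/kg lay above every other library, while those at the 4 lower levels overlapped. The slope was 1.93 ± 0.25 (SE) per rank with adjusted p = 0.0032. Its slope lay between 1.799 and 2.295 when any 1 library was left out and passed each time, and it was 2.12 with adjusted p = 0.097 under the length and GC covariates.

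Its neighbour Cyp4a10, of the same enzyme family (chromosome 4, 115518287 to 115533649), also had its highest values at 6 mmol/kg. The vehicle libraries held 18.7, 76.8 and 11.0 CPM, those at 0.22 mmol/kg 40.1, 85.1 and 27.2, and those at 0.67 mmol/kg 89.7, 71.7 and 138. At 2 mmol/kg the values were 40.3, 447 and 397 CPM, and at 6 mmol/kg 2381, 1400 and 1645 CPM. In both genes replicate 1 of 2 mmol/kg lay far below its partners, within the range of the lower doses. The slope of Cyp4a10 was 1.40 ± 0.18 per rank (adjusted p = 0.0032). Cyp4a31 and Cyp4a32, the other called members of the cluster, had slopes of 0.86 ± 0.11 and 0.57 ± 0.09. The Cyp4a genes are near-identical in places, so reads may have been shared among them.

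The acyl-CoA thioesterases Acot1 and Acot2, which split fatty acyl-CoA in cytosol and mitochondria, rose by 0.67 ± 0.12 and 0.60 ± 0.09 per rank. Acot2 measured 2.25, 4.44 and 1.33 CPM in vehicle, 3.42, 4.13 and 3.06 at 0.22 mmol/kg and 4.52, 3.29 and 4.96 at 0.67 mmol/kg. It then measured 3.56, 11.1 and 5.45 CPM at 2 mmol/kg and 14.7, 13.8 and 16.2 CPM at 6 mmol/kg. As with Cyp4a14, the 3 highest values were those at 6 mmol/kg. Both thioesterases are close paralogs, and their levels are uncertain for that reason.

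The peroxisomal steps of beta-oxidation moved as well. Ehhadh, the peroxisomal bifunctional enzyme, measured 108, 250 and 128 CPM in vehicle and 281, 236 and 233 at 0.22 mmol/kg. It had 150, 266 and 191 CPM at 0.67 mmol/kg, 181, 511 and 273 at 2 mmol/kg and 1149, 840 and 1111 at 6 mmol/kg. Of the dose groups, that at 6 mmol/kg alone lay wholly above the vehicle libraries, and the mean at 0.67 mmol/kg lay below that at 0.22 mmol/kg. The peroxisomal thiolases Acaa1b and Acaa1a rose by 0.49 ± 0.07 and 0.19 ± 0.04 per rank. Acaa1b averaged 676, 991, 1040, 1413 and 3013 CPM over the 5 levels in order of dose.

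Angptl4, a secreted inhibitor of lipoprotein lipase, rose in the trend, with values above vehicle at every dose. Its vehicle libraries held 48.4, 48.7 and 47.7 CPM, those at 0.22 mmol/kg 74.1, 84.8 and 83.1, and those at 0.67 mmol/kg 107, 113 and 233. At 2 mmol/kg it measured 111, 209 and 119 CPM, and at 6 mmol/kg 157, 195 and 238 CPM. Every dosed library lay above all vehicle libraries, and the libraries from 0.67 to 6 mmol/kg overlapped. The slope was 0.49 ± 0.08 (adjusted p = 0.0077), while the step of 0.22 over 0 mmol/kg, 0.74 ± 0.29, did not pass (adjusted p = 0.76). Acadl, a mitochondrial acyl-CoA dehydrogenase, averaged 181, 206, 218, 239 and 294 CPM, with all dosed libraries above the vehicle libraries. Vnn1, a pantetheinase, averaged 5.81, 5.43, 5.32, 13.5 and 22.9 CPM and was the called member of the list whose shape was a step at 2 mmol/kg. The auxiliary oxidation enzymes Decr2 and Eci1 had slopes of 0.21 ± 0.04 and 0.23 ± 0.05.

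As a description of the 15 called members, a line in mmol/kg had the smallest deviance for 8, a line in rank for 6 and a step at 2 mmol/kg for 1. The lowest dose from which every library lay beyond all vehicle libraries was 6 mmol/kg for 11 of them, 2 mmol/kg for 2 and 0.22 mmol/kg for 2. Those at 0.22 mmol/kg were Angptl4 and Acadl. Over all genes tested, these 3 doses took 11.85%, 4.94% and 0.59%, and 81.32% had no such dose. Selection by slope favours having such a dose. Among all 59 genes called higher in the trend, selected in the same way, the 3 doses took 33.9%, 42.37% and 10.17%. The measure rests on the most extreme vehicle library. For Cyp4a10 and Acot1 that was replicate 2, at 76.8 CPM against 18.7 and 11.0, and at 17.3 CPM against 6.06 and 3.93. The lower vehicle replicates 1 and 3 held 19623 and 11185 CPM of the acute phase gene Saa1, and replicate 2 held 102 CPM. Replicate 1 of 2 mmol/kg, low in Cyp4a14 and Cyp4a10, held 2660 CPM of Saa1, and its partners 380 and 98.0 CPM. Angptl4 was even among the vehicle libraries. A link between these levels was not tested.

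Other members of the list did not pass. Fgf21, a fasting hormone of liver, had a slope of 0.62 ± 0.18 with adjusted p = 0.11, and its values at 6 mmol/kg (4.64, 20.9 and 10.8 CPM) overlapped those at 0.67 mmol/kg (6.86, 2.42 and 13.5 CPM). Fabp1, the liver fatty acid binding protein, averaged 2737, 3281, 5156, 4942 and 6332 CPM by dose (adjusted p = 0.057). Pdk4, a kinase that restrains glucose oxidation, had a slope of -0.09 ± 0.09.

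**Figure D2:**
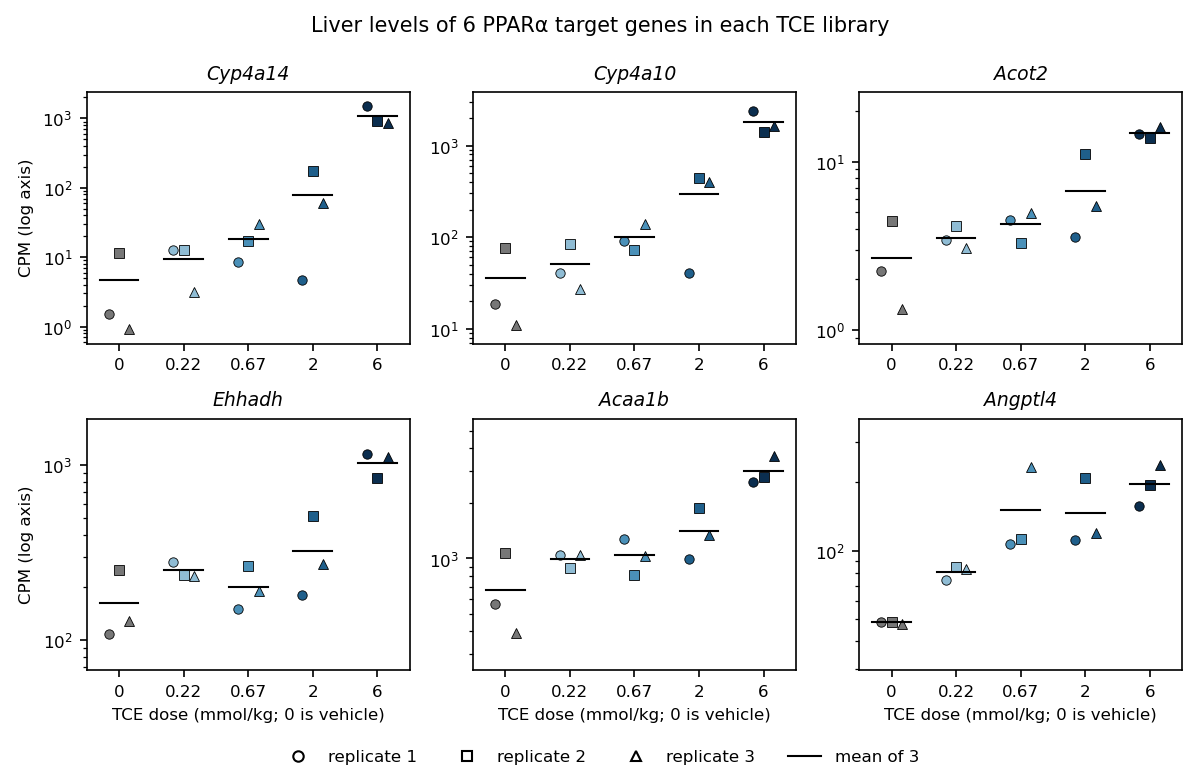
CPM on log axes against TCE dose in mmol/kg for 6 PPARα target genes, with 1 symbol per library and a bar for the mean of 3. The 6 mmol/kg libraries lie above all others for Cyp4a14, Cyp4a10, Acot2, Ehhadh and Acaa1b, whereas the Angptl4 libraries at 0.22 mmol/kg already lie above the vehicle libraries.

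Promoters were read from RefSeq (GRCm38.p6) for the 4 PPARα targets with the smallest trend p-values and for Dbp, whose shape of smallest deviance was a step at 6 mmol/kg. Cyp4a10, Cyp4a31 and Cyp4a14 are named only. The sequences below run from 250 bases before to 50 bases after the start, on the plus strand, and are shown because Acot2 had a line in mmol/kg as its shape and Dbp a step. Acot2 lies at chr12:83987611-83987910 and Dbp at chr7:45704997-45705296. Capitals would mark a match, and there was none.
Acot2: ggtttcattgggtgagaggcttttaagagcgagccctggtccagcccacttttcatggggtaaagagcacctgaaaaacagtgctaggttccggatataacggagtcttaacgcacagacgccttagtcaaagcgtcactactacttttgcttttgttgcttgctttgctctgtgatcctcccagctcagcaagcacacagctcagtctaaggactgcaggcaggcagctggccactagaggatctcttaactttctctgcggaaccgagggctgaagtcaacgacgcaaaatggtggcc
Dbp: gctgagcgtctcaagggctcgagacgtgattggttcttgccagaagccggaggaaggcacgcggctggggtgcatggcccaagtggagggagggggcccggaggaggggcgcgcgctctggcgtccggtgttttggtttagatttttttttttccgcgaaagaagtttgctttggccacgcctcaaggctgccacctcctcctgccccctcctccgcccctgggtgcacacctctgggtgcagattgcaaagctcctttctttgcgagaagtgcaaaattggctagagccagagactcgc
Neither window held the half-site AGGTCA on either strand, which 16.26% of 32851 promoter windows of that length hold, nor the E-box CACGTG, held by 7.15%. Of the 15 called PPARα targets, 9 had a promoter in the table, and none of these held 2 copies of AGGTCA 1 base apart at up to 2 mismatches, which 3.86% of windows hold. The pair is built from the half-site, although a pair with mismatches need not hold an exact copy, so the 2 searches overlap. At a share of 3.86%, finding none in 9 windows says little, and the absence of a match concerns only these windows.

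The second question was whether the 5 dose means differed in any way, a test that does not favour a slope. It called 15 genes (0.121%), 12 of them among the 106. Cyp4a14, Cyp4a10, Ehhadh, Hsd17b11, Dbp, Npas2, Ppard, Clic3, Slc34a2 and Rnf43 shared the smallest adjusted p, 0.0184. With 0.67 mmol/kg replicate 2 left out the test called 608 genes, and with both libraries that stood apart left out 4612. With replicate 1 or replicate 2 of 6 mmol/kg left out it called none, and with replicate 3 it called 1. For each gene, 7 shapes were compared by residual deviance, as a description with no test: a line in rank, a line in mmol/kg, a step at each dosed level, and a hump of the 3 middle doses. Of the 15 genes, the line in mmol/kg came first for 7, the line in rank for 2, a step at 0.67 mmol/kg for 3 and a step at 6 mmol/kg for 3.

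The any-dose genes whose shape was a step at 6 mmol/kg were Dbp, Ppard and Npas2. Dbp, a clock-controlled transcription factor whose liver RNA cycles over the day, measured 0.99, 0.89 and 0.72 CPM in vehicle and 1.43, 0.71 and 1.14 at 0.22 mmol/kg. It had 1.23, 1.08 and 0.83 CPM at 0.67 mmol/kg and 0.99, 0.66 and 1.63 at 2 mmol/kg, then 16.9, 11.3 and 2.13 CPM at 6 mmol/kg. All libraries below 6 mmol/kg overlapped, and the 3 at 6 mmol/kg lay above them. The trend passed (0.82 ± 0.16, adjusted p = 0.022), while the step of 6 over 2 mmol/kg, 3.22 ± 0.58, did not (adjusted p = 0.23).

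Npas2, a partner of BMAL1 in the core clock, went the other way. Its libraries held 12.9, 17.9 and 17.2 CPM in vehicle, 10.1, 15.7 and 17.2 at 0.22 mmol/kg and 14.4, 12.2 and 15.0 at 0.67 mmol/kg. At 2 mmol/kg they held 11.8, 12.5 and 13.2 CPM, and at 6 mmol/kg 2.40, 3.88 and 4.90 CPM. Ppard, which encodes the nuclear receptor PPARδ, had means of 65.9, 56.4, 67.9, 51.2 and 14.6 CPM by dose, and its 3 libraries at 6 mmol/kg (11.1, 15.6 and 17.3 CPM) lay below all others. These were the only genes called in the step of 6 over 2 mmol/kg (0.0161%), at -1.75 ± 0.25 and -1.80 ± 0.25 with adjusted p = 0.038 each. For 9 of the 15 libraries, leaving that library out left no gene called in this step.

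Of 18 clock and output genes tested, 1, Dbp, rose in the trend and none fell, against 0.474% and 0.378% of all genes tested. Dbp and Npas2 passed the any-dose test, against 0.121%. In the trend DESeq2 called 3 members higher and 4 lower, and a fit of all 29 liver libraries 2 and 3. Dbp passed the trend in 12 of the 15 fits without 1 library. The next genes passed neither the trend nor the any-dose test by edgeR in the 15 libraries, and are given by their values. Nr1d1, the repressor REV-ERBα, averaged 22.3, 27.3, 42.0, 19.6 and 103 CPM by dose, and its values at 6 mmol/kg were 116, 140 and 51.4 CPM. The related Nr1d2 averaged 10.0, 17.5, 15.9, 13.6 and 42.2 CPM. Cry1, a repressor of the core loop, averaged 28.1, 30.4, 24.1, 24.3 and 12.4 CPM. The labels give the hours of dosing only, so that the hour of sampling and the dose group cannot be told apart for genes that cycle.

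**Figure D3:**
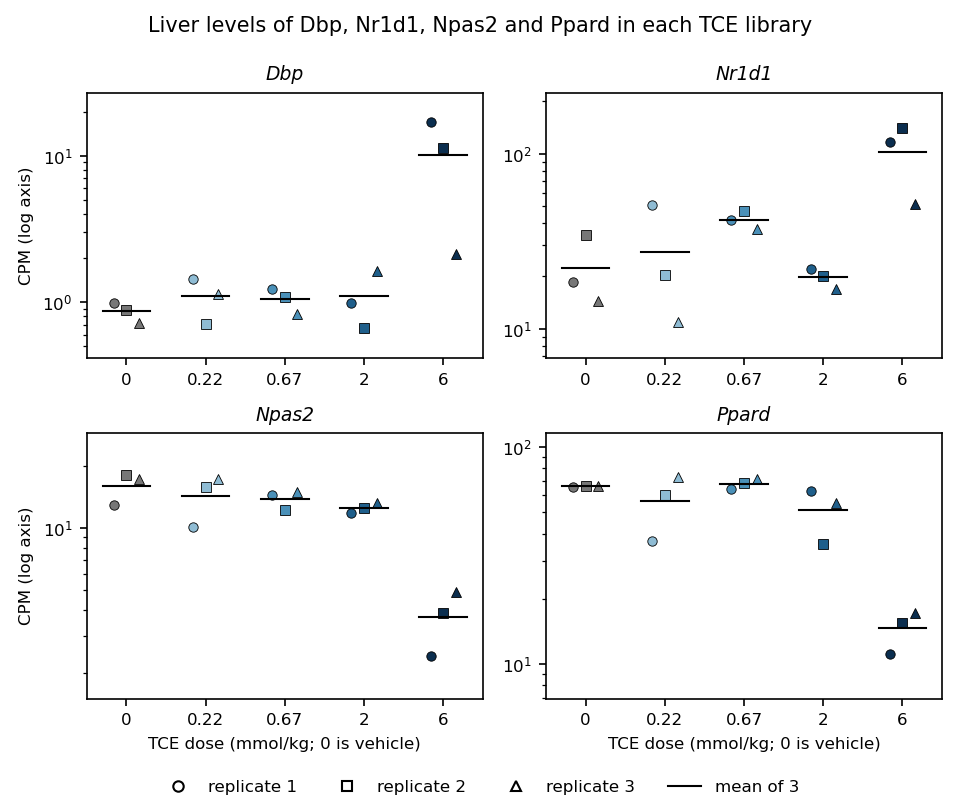
CPM on log axes against TCE dose in mmol/kg for Dbp, Nr1d1, Npas2 and Ppard, with 1 symbol per library and a bar for the mean of 3. The 3 libraries at 6 mmol/kg lie above all others for Dbp and Nr1d1 and below all others for Npas2 and Ppard.

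The remaining tests of shape called no gene. No gene departed from a straight line in rank (0%; smallest adjusted p = 0.43, 906 genes at an unadjusted p under 0.05), and none had curvature (0%; 464 genes). The steps of 0.22 over 0, 0.67 over 0.22 and 2 over 0.67 mmol/kg called none either (0% each), where 763, 2389 and 353 genes had an unadjusted p below 0.05. By DESeq2 57 genes departed from a line, 6 had curvature, and the same steps had 22, 54 and 0 calls. Without 0.67 mmol/kg replicate 2, edgeR called 3572 genes in the step of 0.67 over 0.22 mmol/kg, 1669 higher and 1903 lower, and 532 departures. The higher genes had a median transcript length of 2672 bases and the lower ones 3867 bases. With the length and GC slopes as covariates in the same libraries, 382 genes were called in that step, with medians of 3629 and 3364 bases.

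Over all genes tested, a step at 0.67 mmol/kg was the shape of smallest deviance for 45.5%, and 41.3% were non-monotonic, meaning that a middle dose held the extreme mean and lay beyond the nearer end mean by the larger part of the range. Only 2.3% had 5 means in strict order. Of all genes tested 0.121% passed the any-dose test, so these shares mostly describe genes with no called difference between doses. They do not show a threshold at 0.67 mmol/kg. The part of the library length slopes in them was not tested. Of the 106 genes called in the trend, the line in rank came first for 70, the line in mmol/kg for 19, a step at 0.67 mmol/kg for 11, at 2 mmol/kg for 5 and at 6 mmol/kg for 1. Of them 52 were in strict order and none was non-monotonic. Selection by a slope on rank favours all of this, the line shapes included. The change between 0 and 6 mmol/kg was reached by a median of 21.8%, 39.5% and 68.8% at 0.22, 0.67 and 2 mmol/kg in the genes that rose, and by 20.4%, 58.2% and 78.1% in those that fell, on the log2 scale. Among genes that rose, the largest step was that to 6 mmol/kg for 21 of 59, and among those that fell, that to 0.67 mmol/kg for 20 of 47.

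**Figure D4:**
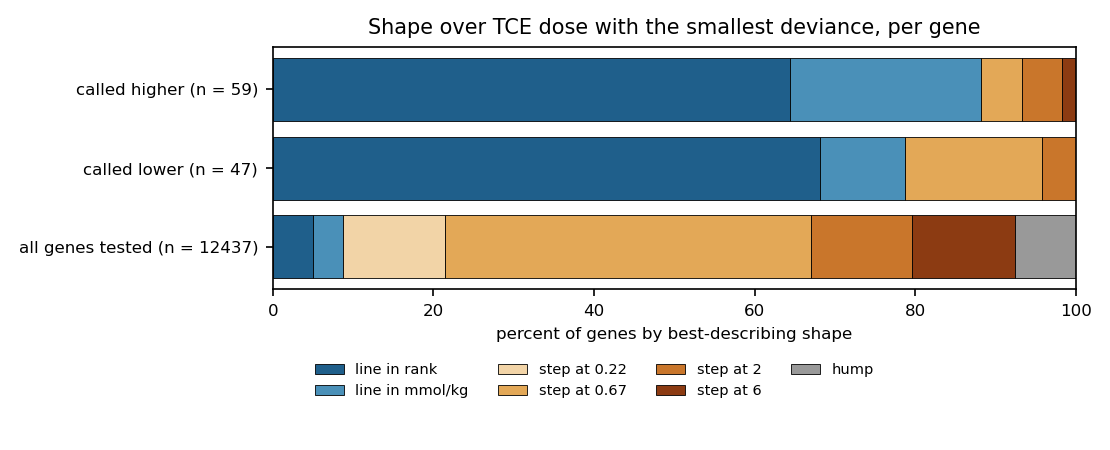
Percent of genes (horizontal axis) for which each of 7 shapes had the smallest residual deviance, for 59 genes called higher, 47 called lower and all 12437 tested. Lines in rank or mmol/kg fill most of the bars of called genes, which were selected by a slope on rank, a choice that favours lines. A step at 0.67 mmol/kg fills 45.5% of the bar of all genes, most of which passed no test of dose.

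Genes that fell had other functions. Clic3, an intracellular chloride channel protein (chromosome 2, 25456843 to 25458777), measured 13.3, 17.1 and 17.5 CPM in vehicle, 7.58, 12.5 and 12.7 at 0.22 mmol/kg and 9.99, 5.76 and 6.79 at 0.67 mmol/kg. It then had 9.33, 3.19 and 7.87 CPM at 2 mmol/kg and 2.27, 1.57 and 2.02 CPM at 6 mmol/kg. Every dosed library lay below all vehicle libraries, and its 5 means were in strict order. The slope was -0.64 ± 0.10 (adjusted p = 0.0077) and passed whichever library was left out.

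Slc34a2, a sodium-phosphate cotransporter, held its level at the lowest dose, with 6.59, 8.94 and 8.82 CPM in vehicle and 6.89, 9.21 and 12.6 at 0.22 mmol/kg. Its values were 6.12, 3.60 and 4.68 CPM at 0.67 mmol/kg, 5.43, 4.33 and 3.28 at 2 mmol/kg and 1.27, 1.94 and 1.84 at 6 mmol/kg. From 0.67 mmol/kg upward each library lay below all vehicle libraries. The slope was -0.57 ± 0.09 over all libraries and -0.76 ± 0.11 among the 12 dosed ones.

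Rnf43, a ubiquitin ligase that removes Wnt receptors and is itself a Wnt target, followed a step at 0.67 mmol/kg. It measured 25.0, 32.5 and 29.1 CPM in vehicle and 38.9, 32.99 and 31.2 at 0.22 mmol/kg. Its values were 23.8, 22.3 and 18.6 CPM at 0.67 mmol/kg, 17.9, 16.7 and 16.3 at 2 mmol/kg and 16.5, 18.3 and 14.4 at 6 mmol/kg. Lgr5, a Wnt coreceptor of hepatocytes around the central vein, had the same shape. Among 11 pericentral markers it alone was called, against 0.378% of all genes tested that fell. Its means were 8.48, 9.33, 5.35, 5.43 and 5.10 CPM by dose, with a slope of -0.23 ± 0.05 (adjusted p = 0.026). The 11 pericentral markers summed to 10720 to 12890 CPM at 6 mmol/kg and 9164 to 12220 CPM in vehicle, ranges that overlap. Such a sum rests mostly on the most abundant markers. Of the 11 slopes 9 were negative, against 6636 of 12437 over all genes. Their median was -0.099 per rank, against -0.006 over all genes. The length slopes were positive in 5 of the 6 libraries at 0 and 0.22 mmol/kg and in 4 of the 9 at higher doses, and their part in these genes was not tested. Of 10 periportal markers 1 rose, against 0.474% of all genes tested. This was Hsd17b13, a lipid droplet protein, with means of 61.9, 72.4, 72.9, 94.4 and 107.6 CPM by dose.

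Other named genes fell in the trend. E2f2, a transcription factor of the cell cycle, averaged 2.65, 2.20, 1.44, 1.17 and 0.93 CPM by dose. Acmsd, which diverts tryptophan breakdown away from NAD synthesis, averaged 47.0, 32.7, 27.5, 24.3 and 17.0 CPM, and Gas1, a hedgehog coreceptor, 22.8, 21.8, 15.4, 12.3 and 10.3 CPM. Grk5, a kinase of G protein-coupled receptors, fell by 0.32 ± 0.06 per rank, and Itga5, the integrin chain that binds fibronectin, by 0.22 ± 0.04. Mmd2, Gfod1 and Tsc22d1 had slopes of -0.39 ± 0.08, -0.38 ± 0.08 and -0.36 ± 0.08. With each of the 15 libraries left out in turn, Gfod1 and Acmsd passed in 6 fits each and Tsc22d1 in 4. Irs1 and Uggt1 were chosen after their values were seen. Irs1, the insulin receptor substrate, averaged 36.9, 37.0, 28.5, 20.5 and 19.6 CPM by dose. Uggt1, the glucosyltransferase that checks folding of glycoproteins, averaged 153, 135, 116, 95.8 and 85.4 CPM. Of 25 genes on the list of ER chaperones and the unfolded protein response, 1 fell, Edem1, which helps to clear misfolded glycoproteins, against 0.378% of all genes tested. Of the list's slopes 23 were negative, against 6636 of 12437 over all genes. The median slope of that list was -0.16 per rank, and -0.05 with the length and GC covariates, where Edem1 had adjusted p = 0.396. DESeq2 called 8 members lower, and Edem1 passed in 6 of the 15 fits without 1 library. Of the genes called lower, Myom3, a sarcomere protein, had the steepest slope, with means of 5.38, 1.65, 1.12, 1.503 and 0.45 CPM. Its vehicle libraries held 6.36, 1.63 and 8.14 CPM, of which 1.63 lay within the range of the dosed libraries. The Myom3 slope among dosed libraries, -0.48 ± 0.21, did not pass (adjusted p = 0.64), and the trend passed in 11 of the 15 fits without 1 library. The 10 skeletal muscle markers together summed to at most 2.10 CPM in any library.

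**Figure D5:**
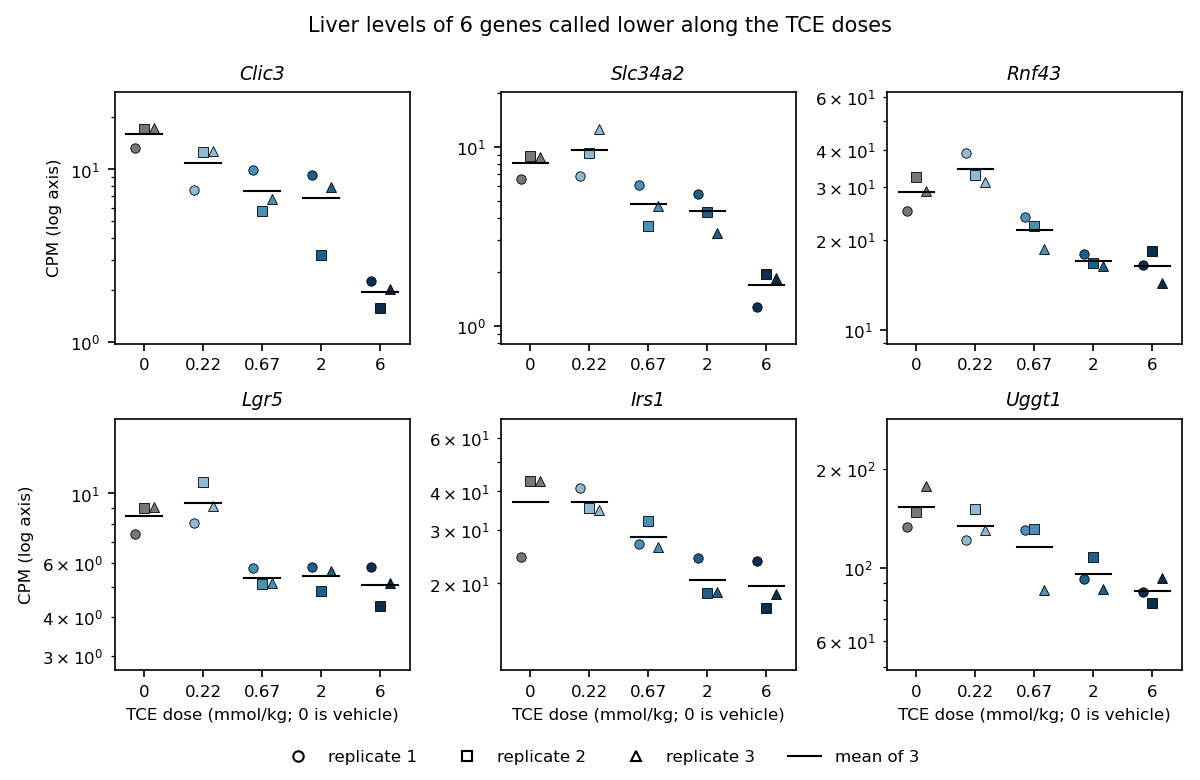
CPM on log axes against TCE dose in mmol/kg for 6 genes called lower, with 1 symbol per library and a bar for the mean of 3. Clic3, Uggt1 and Irs1 decline over several doses, and Rnf43 and Lgr5 lie lower from 0.67 mmol/kg upward.

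Among the other genes that rose, Hsd17b11, a lipid droplet dehydrogenase, had 107 to 152 CPM in vehicle, and its means were 128, 168, 153, 206 and 317 CPM by dose (slope 0.29 ± 0.04, adjusted p = 0.0065). Bnip3, a mitophagy receptor chosen after its values were seen, averaged 69.9, 108, 109, 126 and 164 CPM, and all 12 dosed libraries lay above the vehicle libraries. Txnip, a glucose-induced inhibitor of thioredoxin, and Socs2, a growth hormone feedback inhibitor, had slopes of 0.57 ± 0.13 and 0.68 ± 0.15, each with adjusted p = 0.044. Both lost their calls in most of the fits that left out 1 library, passing in 6 and 5 of 15.

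Of the genes called in the any-dose test, 1 was non-monotonic. BC025920, a gene of low counts named after its values were seen, had 0.95, 0.70 and 1.00 CPM in vehicle and 0.32, 0.32 and 0.27 at 0.22 mmol/kg. It had 1.91, 0.87 and 1.58 CPM at 0.67 mmol/kg, 1.93, 1.07 and 1.84 at 2 mmol/kg and 0.75, 0.75 and 0.79 at 6 mmol/kg, with adjusted p = 0.045 for any difference. Rgs16, a regulator of G protein signalling, also ran up and down but did not pass (adjusted p = 0.079). Its values were 1.19, 2.84 and 1.96 CPM in vehicle, 18.5, 5.84 and 1.86 at 0.22 mmol/kg, 19.9, 73.0 and 84.5 at 0.67 mmol/kg, 3.61, 5.48 and 4.24 at 2 mmol/kg and 19.5, 93.9 and 14.5 at 6 mmol/kg. The 3 libraries at 2 mmol/kg lay below those at 0.67 and 6 mmol/kg.

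The vehicle libraries weighed on the slope of several genes, so the trend was refitted among the 12 dosed libraries alone. It called 22 of 12264 genes (0.179%), 13 higher (0.106%) and 9 lower (0.0734%), and 17 of the 22 were among the 106. On the PPARα list 8 of 57 members rose and none fell. Cyp4a14 had a slope of 2.28 ± 0.32 per rank among dosed libraries (adjusted p = 0.020), and Acot2 0.70 ± 0.11 (adjusted p = 0.032). Of the 5 genes called there and not in the trend over all libraries, 4 had their highest or lowest mean at 0.22 mmol/kg. Slco1a4, an organic anion transporter, averaged 22.7 CPM in vehicle and then 50.6, 22.5, 13.5 and 12.9 CPM, and Ucp2, a mitochondrial carrier, averaged 48.6 CPM in vehicle and then 24.2, 34.7, 45.7 and 56.8 CPM. The dosed trend called no gene when replicate 3 of 0.22 mmol/kg, or replicate 2 or 3 of 6 mmol/kg, was left out, and 8 genes without 0.67 mmol/kg replicate 2.

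The acute phase proteins, made by liver in inflammation, had high values in 2 of the 3 vehicle libraries, and no member passed the trend, any-dose or dosed trend test. Saa1, serum amyloid A, measured 46.6 to 379.9 CPM in the dosed libraries, except replicate 1 of 2 mmol/kg at 2660 CPM, and 19623, 102 and 11185 CPM in the vehicle libraries. Orm2 and Lcn2 had the same 2 vehicle libraries high. Of 30 acute phase genes tested, none passed in the trend, 27 slopes were negative, 26 had their highest mean in vehicle, and the median step of 0.22 over 0 mmol/kg was -1.15. In the trend DESeq2 called 4 members lower and 1 higher, and edgeR called 5 lower without replicate 1 of 2 mmol/kg. The 12 Kupffer cell and macrophage markers summed to 149 to 373.5 CPM at 6 mmol/kg and 164 to 418 CPM in vehicle, ranges that overlap.

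None of 24 genes of oxidative TCE metabolism passed in the trend, although 1 rose by DESeq2 and 1 in the fit of 29 libraries. Cyp2e1 ranged from 4743 to 7740 CPM over the 15 libraries, with a slope of 0.03 ± 0.04. Of 34 genes of cytochrome P450 families 1 to 3 and their regulators, 1 fell and none rose, against 0.378% and 0.474% of all genes tested. The member that fell was Cyp2u1 (-0.25 ± 0.05, called in 4 of the 15 fits without 1 library). Cyp2b10, the marker of CAR activation, had a slope of -0.16 ± 0.13, Cyp7a1, the rate-limiting enzyme of bile acid synthesis, one of -0.13 ± 0.15, and Cdkn1a, a p53 target, one of 0.17 ± 0.13. In the trend over all libraries, no member passed in either direction on the lists for NRF2, ATF4, p53, bile acids, cholesterol synthesis, lipogenesis, gluconeogenesis, the cell cycle, interferon, heat shock, immediate early genes, glucocorticoid targets, the respiratory chain or ribosomal proteins. By DESeq2, 3 NRF2 members and 1 member each of immediate early genes and ribosomal proteins rose. It called 1 member lower on each of the lists for bile acids, lipogenesis and glucocorticoid targets. Of 21 male-biased and growth hormone responsive genes tested, Socs2 rose and Cyp2u1 fell, against 0.474% and 0.378% of all genes tested.

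Finally, the slopes with TCE were set against those with PCE, which has chlorine where TCE has hydrogen, at the same molar doses in 1 fit of 29 liver libraries. No gene of 13160 differed in slope (0%; smallest adjusted p = 0.099, 2286 at an unadjusted p under 0.05) and none in curvature (0%; 461). DESeq2 called 79 differences in slope and 1 in curvature, and edgeR called 556 in slope without vehicle replicate 1 of TCE. Cyp4a14 had slopes of 1.93 ± 0.26 with TCE and 2.25 ± 0.28 with PCE, a difference of -0.32 with a 95% interval of -0.96 to 0.32. For Ehhadh they were 0.59 ± 0.10 with TCE and 0.84 ± 0.11 with PCE (difference -0.25, interval -0.54 to 0.05), and for Clic3 -0.65 ± 0.12 with TCE and -0.72 ± 0.12 with PCE (difference 0.08, interval -0.27 to 0.43). Dbp had 0.82 ± 0.14 with TCE and 0.30 ± 0.16 with PCE, and its interval of 0.09 to 0.95 for the difference came with adjusted p = 0.23. A p that misses the threshold does not show that the solvents act alike.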

How the data were processed

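The authors deposited raw read counts per RefSeq transcript, 1 column per liver library, neither normalized nor pooled, per the file headers. In columns whose deposited dose line under the header holds a decimal, the unit was recorded as estimated counts, although every read count below that line is whole. Build mm10 and the tools TopHat2 2.0.10, CASAVA 1.8.2 and HTSeq stand in the submitters' processing notes, with no roles. Strand setting and annotation: not given in the sources used here. Lines for ambiguous reads (19.89 to 22.55%) and reads without a feature (14.29 to 21.15%) were left out. The 33392 transcripts were summed to 24077 genes by symbols of the deposited kidney table (29562 transcripts) or, where it gave none or a date, of RefSeq (3704), with 126 unnamed.

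Tests used edgeR 4.0.16 (TMM, filterByExpr, robust quasi-likelihood F tests, two-sided) in R 4.3.3 with Benjamini-Hochberg adjustment over all genes tested, called under 0.05. SE is the estimate over the square root of F. The common biological coefficient of variation was 0.245 with 1 mean per dose. Alternatives were DESeq2 1.42.0, no filter, DESeq2 size factors, thinned counts, covariates, a replicate block, other dose scales and each library left out. The tests were checked on simulated counts. Positions are 1-based (GRCm38.p6). Replicates differed by more than sampling noise. Nothing in the labels says that replicates are separate animals, so the p-values may rest on technical spread alone.

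Members, lists and tests were chosen with earlier results of these data known. Named genes are the 10 higher and 10 lower trend calls with the largest slope (mean of at least 1 CPM, no predicted names), the leading calls of the other tests, the leading called member of each list and 10 genes reported whatever their result. Others were chosen after their values were seen, as were the list members given as examples. The list names Nocturnin, Trbc1 and Ahsp were not matched. Shape classes were planned for the any-dose calls and extended to the trend calls and all genes. A called list member is not reported here by name.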

Additional observations from a re-analysis of the deposited data

How the results depend on the processing

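Counts below are genes called, against 106 in the trend, 15 in the any-dose test, 22 in the dosed trend and 2 in the step of 6 over 2 mmol/kg. No called slope of a named gene changed sign. DESeq2's size factors, no count filter and thinned counts kept the counts of all tests within 1.5 times. DESeq2's own test called 446 in the trend, 380 in the any-dose test, 98 in the dosed trend, 57 departures, 6 curvatures, 22, 54 and 19 in the steps to 0.22, 0.67 and 6 mmol/kg, and 79 and 1 in the slope and curvature differences to PCE. A single fit of 29 libraries called 204 in the trend, 70 in the any-dose test, 38 in the dosed trend, 1 departure, 1 in the step to 0.67 and 4 in that to 6 mmol/kg. With dose in mmol/kg the trend called 55. Length and GC covariates left 2 in the trend, 0 in the any-dose test and 0 in the step to 6 mmol/kg. Without the line in mmol/kg, 8 of the 15 any-dose genes, against 2 with it, had the line in rank as their shape.

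With a replicate block the trend called 67 and the dosed trend 10. The replicate numbers gave no sign of pairing, since 8 of 30 same-number pairs correlated over 0.1, against 23 of 60 pairs with different numbers. These correlations use deviations from means of 3 libraries, so they cannot exclude pairing.

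Leaving out each library gave 22 to 228 in the trend, 0 to 608 in the any-dose test, 0 to 26 in the dosed trend, 0 to 532 departures and 0 to 1 curvatures. The steps gave 0 to 54 (to 0.22), 0 to 3572 (to 0.67) and 0 to 2 (to 6 mmol/kg), and the PCE differences 0 to 556 in slope and 0 to 1 in curvature. Chosen after seeing the data, leaving out vehicle replicate 1 and 0.67 mmol/kg replicate 2 together gave 168 in the trend, 4612 in the any-dose test, 8 in the dosed trend, 3526 departures, 3226 curvatures, 5244, 1 and 0 in the steps to 0.67, 2 and 6 mmol/kg. Leaving out 0.67 mmol/kg replicate 2 alone, with covariates, gave 0 in the trend, 0 in the any-dose test, 40 in the dosed trend, and 382 and 0 in the steps to 0.67 and 6 mmol/kg. Leaving out vehicle replicate 1 alone with covariates gave 33 in the trend, 3 in the any-dose test and 0 in the step to 6 mmol/kg. The cause was not tested. Depth was lower at the middle doses, which limits low-count genes there.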
